A study of Mus musculus with 19 samples.

Results

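Long intergenic noncoding RNAs (lincRNAs) are transcripts that lie between protein-coding genes and have no long open reading frame. Many are spliced and polyadenylated like mRNAs, and most have no known function. The growing oocyte stores a large set of RNAs and then stops transcription, so that the lincRNAs of an MII oocyte, the ovulated egg arrested in metaphase of the second meiotic division, are maternal. In the mouse, the major wave of transcription from the new embryonic genome falls in the 2cell embryo, when maternal RNAs are degraded and many transcripts start inside long terminal repeats of endogenous retroviruses. CPEB3 is an RNA-binding protein of the cytoplasmic polyadenylation element binding family, which binds U-rich elements such as UUUUAU near the 3′ end of mRNAs and acts on their poly(A) tails and translation.

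The RNAs described here were the 200 lincRNA genes with the highest mean abundance, out of 2015 genes of that biotype among 25891 genes measured. Abundance was given as FPKM, the number of fragments scaled to transcript length and to the mapped fragments of the library, and the lincRNAs were selected on their mean over all 19 libraries. The choice therefore rests on the same values that are reported below, and the abundance itself is a description, with no test. At the edge of the choice, the last lincRNAs inside were 1700020I14Rik with a mean of 0.828 FPKM and Gm47510 with 0.817 FPKM. Just outside were Gm45659 with 0.798 FPKM and BC002059 with 0.785 FPKM.

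The libraries came from BL6 females of 6 to 10 weeks that were superovulated with 5 IU PMSG and, 48 h later, 5 IU hCG. Het females (CPEB3+/-) were the controls, and KO females (CPEB3-/-) carried homozygous LoxP alleles of CPEB3 with a Cre driven by the ZP3 promoter, which is active in growing oocytes, so that the deletion was restricted to the oocyte. There were 5 Het and 5 KO libraries of MII oocytes, and 5 Het and 4 KO libraries of 2cell embryos collected 37 h after hCG. The embryos came from zygotes of mated females that had been cultured in M16 medium. The paper mated KO females with wild-type males in its embryo tests. It does not name the males of the sequenced embryos, so that a KO 2cell embryo is here an embryo of a KO female. By the methods, a library was made from 5 cells, with a kit that does not mark strand. The labels do not say which cells came from the same female, so that p values measure the spread between these libraries, which may be technical. With pooled cells, fewer cells that hold an RNA and less of it per cell cannot be told apart.

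The targeted gene was low in every library. Cpeb3 ranged from 0.0450 to 0.101 FPKM in the libraries labelled Het MII and from 0.131 to 0.215 FPKM in those labelled KO MII. These values showed no loss of Cpeb3 RNA, but they count the whole gene and not the deleted part alone. The paper reports that Cpeb3 mRNA was absent from KO oocytes by PCR. By immunoblot the CPEB3 protein was reduced, and the paper states that a part of it remained. The 8 oocyte markers summed to 597 to 966 FPKM in MII and to 118 to 211 FPKM in 2cell libraries, and the 8 markers of the 2cell stage to 6.28 to 28.0 and 445 to 848 FPKM, so that the stage labels held. None of the 7 cumulus and granulosa cell markers in the table reached 1 FPKM in any library. The 3 blood cell markers in the table moved with the stage, with sums of 0.0512 to 0.428 FPKM in MII and 46.2 to 146 FPKM in 2cell libraries, nearly all from the haemoglobin genes Hba-a1 and Hba-a2. Their part in the stage differences was not tested, and none of the 3 was called between genotypes. The depth, read from the steps between low values, was 17.2 to 23.6 M (1e6) fragments per library. For a lincRNA of the median length of 1164 bases, 0.436 FPKM at the median depth correspond to 10 fragments.

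The 200 lincRNAs were short and mostly spliced. Of the 196 that matched a GENCODE gene, 20 had 1 exon and 87 had 2 exons, and the median GC content was 46.4%. The median distance to the nearest protein-coding gene was 29468 bases. A protein-coding gene was overlapped by 19, 16 of them on the opposite strand, and because the libraries carry no strand, reads of such pairs cannot be told apart. Fragments can also be shared with other genes by sequence. In 38 lincRNAs more than 50% of the transcript's 31-base words occurred in other annotated genes, so that their FPKM values are uncertain, while 60 shared none. The 200 lincRNAs together took 1.61 to 2.13% of all FPKM in the MII libraries and 1.96 to 3.11% in the 2cell libraries. Within the 2cell stage this share was 1.96 to 2.25% in Het and 2.79 to 3.11% in KO libraries. The summed FPKM of the lincRNAs was 3038 to 3388 in Het and 3444 to 3839 in KO, and the total over all genes, the denominator, was 135309 to 159320 in Het and 113886 to 123318 in KO, so that the sum and the total both differed. Gm10076 alone gave 630 to 1379 FPKM of these sums.

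The most widely shared sequence among these transcripts is shown first. A stretch of 20 bases occurred in the transcripts of 18 lincRNAs on 7 chromosomes, and no other word of that length was found in more of them. Words were counted in sequence alone. These 18 are named for the stretch and not for their values. In 17 of the 18 it lay in the first exon, within the first 300 bases of the annotated transcript, with a median start at base 54. The exception was Gm38947, where it started at base 2203. Its reverse complement occurred in none of the members. Windows of 80 bases around the stretch are printed below from GENCODE vM21 transcripts on GRCm38, 5′ to 3′ on the strand of the gene, with the 20 shared bases in capitals. The bases ct just before them were the same in all 18 as well, since the word length was set beforehand. They are given for 3 lincRNAs of a group on chromosome 13, which share the flanks to the right as well, and for 6 lincRNAs of other loci. Of these 6, Gm48799, Gm45593, Gm20625 and Gm14742 share another right flank.
Gm48419 (chr13:67965495-67965574, plus strand): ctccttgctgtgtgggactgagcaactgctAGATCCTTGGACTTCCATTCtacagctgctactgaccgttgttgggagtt
Gm8016 (chr13:68356734-68356813, minus strand): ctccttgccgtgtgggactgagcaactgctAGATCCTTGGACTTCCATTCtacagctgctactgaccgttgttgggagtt
Gm48436 (chr13:68491300-68491379, minus strand): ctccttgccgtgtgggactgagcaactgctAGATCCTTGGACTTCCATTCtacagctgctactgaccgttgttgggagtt
Gm33466 (chr3:157726306-157726385, minus strand): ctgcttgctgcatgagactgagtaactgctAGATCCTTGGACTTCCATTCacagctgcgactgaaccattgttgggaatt
Gm48799 (chr13:18008242-18008321, minus strand): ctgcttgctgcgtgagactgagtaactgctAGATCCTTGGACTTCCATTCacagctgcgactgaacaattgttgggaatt
Gm45593 (chr7:12825941-12826020, plus strand): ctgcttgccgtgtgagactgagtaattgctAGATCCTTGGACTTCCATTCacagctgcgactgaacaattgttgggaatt
Gm20625 (chr10:61042639-61042718, minus strand): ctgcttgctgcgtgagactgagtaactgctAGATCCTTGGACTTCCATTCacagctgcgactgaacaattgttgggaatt
Gm14929 (chrX:119749575-119749654, minus strand): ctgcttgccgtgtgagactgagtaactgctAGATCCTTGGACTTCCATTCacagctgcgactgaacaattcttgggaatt
Gm14742 (chrX:77803180-77803259, minus strand): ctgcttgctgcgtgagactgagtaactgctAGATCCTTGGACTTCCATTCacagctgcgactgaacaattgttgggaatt
The windows of Gm48799, Gm20625 and Gm14742, from chromosomes 13, 10 and X, were identical over all 80 bases, as was that of Gm38947. No annotation of repeats was used here, and the origin of the stretch was not tested.

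All 18 lincRNAs with the stretch were below the filter for MII oocytes, where at least 0.1 FPKM was required in 5 libraries. In all, 49 of the 200 were below it, and 31 of these lacked the stretch. A lincRNA so low in oocytes could enter the 200 only through its 2cell values. The highest value of any of them in any of the 10 MII libraries was 0.211 FPKM, for Gm48419 in a KO library, and the lowest value in any of the 9 2cell libraries was 0.524 FPKM, for Gm47224. The oocyte and embryo libraries therefore did not overlap for the group as a whole. Gm48419, the most abundant, had 40.9, 33.5, 35.7, 53.7 and 28.9 FPKM in the Het and 79.6, 78.0, 66.7 and 68.3 FPKM in the KO 2cell libraries. Gm33466 followed with a mean of 33.4 ± 7.52 (SD, n = 5) and 43.6 ± 7.38 FPKM (SD, n = 4). Outside the 200, the stretch was annotated in 24 of the other 1815 lincRNA genes, and all 11 of these that could be tested between the stages in Het rose, beside 41.9% of the other lincRNA genes tested. A gene near 0 in oocytes passes the filter only through its 2cell values, so that a rise was largely fixed for such genes, the 18 included. Among protein-coding genes 58 of 17318 held it in some transcript. Of the 44 tested, 26 rose and 11 fell from MII to 2cell, against a share of 34.9% rising among all protein-coding genes tested.

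**Figure D1:**
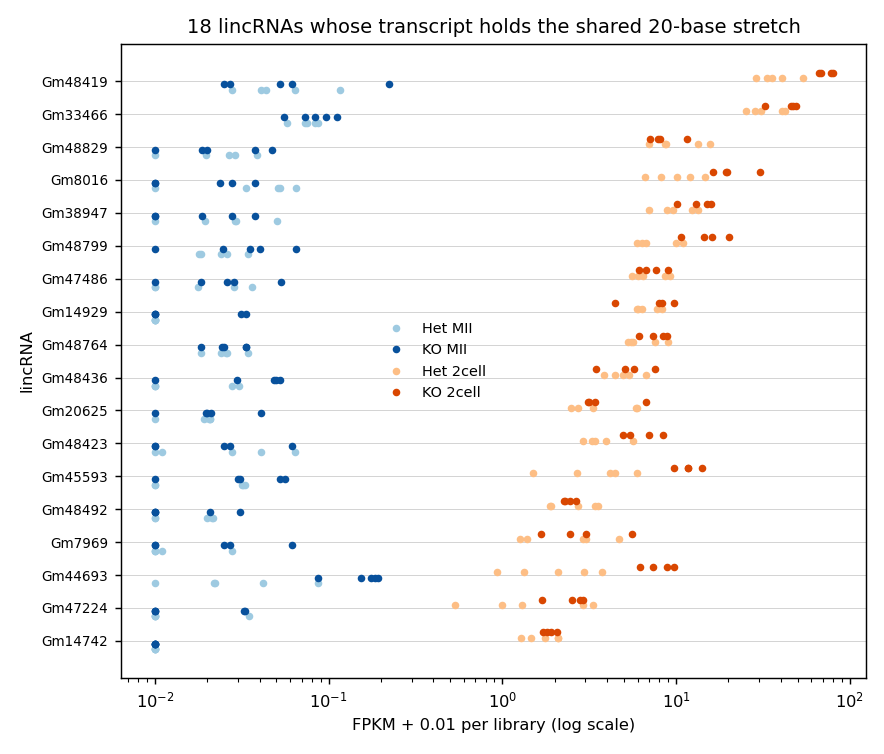
FPKM + 0.01 per library (log scale) for the 18 lincRNAs whose transcript holds the shared 20-base stretch, with 1 point per library, coloured by group and ordered by the mean in Het 2cell embryos. All MII points lie at or below 0.211 FPKM and all 2cell points at or above 0.524 FPKM.

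In KO 2cell embryos, 5 of the 18 were higher than in Het and none was lower, with a median log2 difference of 0.29, beside 8.53% higher and 9.54% lower among all genes tested. Among other genes with the stretch, 2 of 14 lincRNA genes were higher and 0 lower (median 0.12), 8 of 49 protein-coding genes were higher and 4 lower (median 0.01), and 2 of 22 genes of other types were higher and 2 lower (median -0.07). The 5 lincRNAs were Gm44693, Gm45593, Gm8016, Gm48419 and Gm48799. Gm44693 had 1.32, 0.923, 2.92, 3.73 and 2.09 FPKM in Het and 7.31, 8.83, 9.76 and 6.18 FPKM in KO 2cell libraries, without overlap (log2 difference 1.92, SE 0.35, adjusted p = 0.00691). In MII oocytes it had 0.0765 to 0.182 FPKM in KO and 0 to 0.0765 FPKM in Het, too low to be tested. Gm45593 rose from 3.73 ± 1.70 (SD, n = 5) to 11.8 ± 1.77 FPKM (SD, n = 4), with a log2 difference of 1.72 (SE 0.34, adjusted p = 0.00877). The call of Gm48799 was lost in 5 of the 9 fits that leave out 1 library. Several of these genes are near copies: Gm48419 and Gm48423 shared all of their 31-base words and Gm7969 98.9% of them, so that their single values cannot be told apart. The sum of the 3 copies was 33.5 to 60.6 FPKM in Het and 73.3 to 92.1 FPKM in KO 2cell libraries, which did not overlap. In contrast, the sum of 5 long lincRNAs that share the stretch and 49.9 to 78.8% of their words pairwise (Gm48799, Gm47486, Gm48764, Gm48829 and Gm48492) overlapped, with 27.0 to 48.3 FPKM in Het and 32.4 to 47.6 FPKM in KO.

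The comparison of the stages asked how lincRNAs change from the oocyte to the embryo. A call required an adjusted p under 0.05 and a change of more than 1.5-fold. In Het, 86 of the 200 rose and 54 fell, or 43.0% and 27.0%, where 38.5% and 30.9% of all 12684 genes tested did. In KO, 98 rose and 50 fell, where 37.5% and 29.7% of all 13458 genes tested did. The shares depend on the scaling, since with values scaled to their sum 76 rose and 90 fell in Het, and 85 rose and 74 fell in KO. That scaling moved the median of all genes downward as well, as given in the last section. The Het and KO comparisons share no library. Over the 200 lincRNAs their log2 differences had a Pearson r of 0.97, and 85 rose and 43 fell in both, with 0 called in opposite directions. Of the 200, 49 did not pass the filter in MII oocytes and entered the stage comparisons only through their 2cell values, so that their rise was fixed by the choice of genes.

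**Figure D2:**
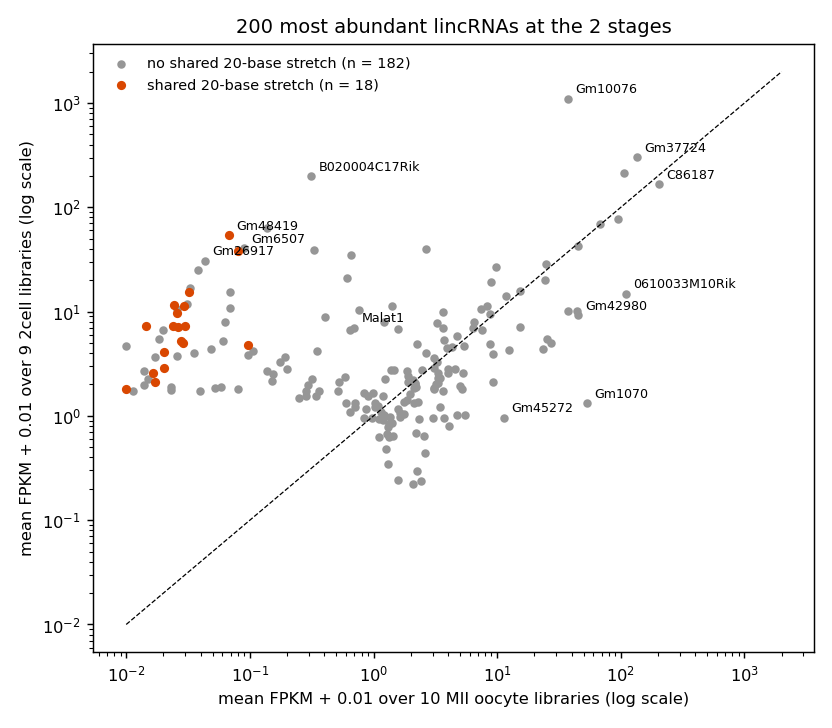
Mean FPKM + 0.01 in 2cell embryos (9 libraries) against MII oocytes (10 libraries) for each of the 200 lincRNAs, both on log scales, with the line of equal values dashed. The 18 lincRNAs with the shared stretch lie at the upper left, near 0 in oocytes, and 0610033M10Rik, Gm1070, Gm42980 and Gm45272 lie below the line.

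The largest rises started from values near 0. B020004C17Rik, on chromosome 14 (57015134 to 57018982, plus strand, 4 exons), had 0.267, 0.323, 0.252, 0.253 and 0.531 FPKM in Het MII oocytes and 209, 218, 182, 182 and 218 FPKM in Het 2cell embryos. Its log2 difference was 8.82 in Het (SE 0.15, adjusted p = 9.5e-12) and 8.90 in KO (SE 0.16, adjusted p = 3.1e-10), and no library of one stage overlapped the other. These differences are on the log2(FPKM + 0.1) scale and depend on the added 0.1 where oocyte values are near 0. BC061195 went from 0.111 ± 0.0380 to 61.4 ± 21.3 FPKM in Het (SD, n = 5 each); 94.3% of its words occur in its X-linked neighbour 1700003E24Rik, and the sum of both was 52.9 to 125 FPKM in Het and 64.3 to 93.5 FPKM in KO 2cell embryos. F730035P03Rik reached 20.1 ± 3.44 in Het and 31.4 ± 7.06 FPKM in KO 2cell embryos from at most 0.0664 FPKM in any MII library.

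A cluster on chromosome 6 held lincRNAs of both kinds within a short distance. Gm1965 (89140994 to 89147388) and Gm839 (89211165 to 89216237) were abundant at both stages, with 76.0 ± 17.3 and 94.7 ± 12.3 FPKM in Het MII oocytes and 69.1 ± 29.9 and 75.7 ± 36.6 FPKM in Het 2cell embryos (SD, n = 5 each). Neither was called between the stages in Het (adjusted p = 0.309 and 0.0861). Gm6507 (89184672 to 89186025), which lies between them, had 0.104 ± 0.0179 FPKM in Het MII oocytes and 43.9 ± 5.59 FPKM in Het 2cell embryos (log2 difference 7.65, SE 0.13, adjusted p = 9.3e-12).

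Among the lincRNAs that fell, Gm1070 showed the largest drop. It had 48.5, 52.4, 51.5, 57.9 and 53.8 FPKM in Het MII oocytes and 0.967, 0.783, 0.928, 1.11 and 1.26 FPKM in Het 2cell embryos, a fall by 5.71 on the log2 scale (SE 0.13, adjusted p = 2.8e-11). The gene overlaps Smyd1, a muscle methyltransferase gene on the opposite strand whose own level was near 0 in all groups. Its fall was smaller in KO, by 4.99 (SE 0.13, adjusted p = 1e-09), and the KO 2cell libraries, at 1.54 to 1.84 FPKM, all lay above the Het 2cell libraries. The difference between the genotypes in this fall was itself called (interaction log2 0.76, SE 0.18, adjusted p = 0.0132). 0610033M10Rik fell from 109 ± 10.6 to 12.6 ± 3.56 FPKM in Het (SD, n = 5 each; log2 -3.28, SE 0.16, adjusted p = 7.1e-09), Gm48538 from 2.19 ± 0.222 to 0.181 ± 0.167 FPKM (-3.30, SE 0.33), Gm45272 from 9.53 ± 1.24 to 1.02 ± 0.30 FPKM (-3.26, SE 0.19) and Gm12050 from 5.93 ± 1.30 to 0.892 ± 0.597 FPKM (-2.98, SE 0.43). In KO the largest falls were those of Gm1070, Gm45272, Gm42980, AC129328.1 and Gm19757, the latter by 3.0 (SE 0.24, adjusted p = 1.4e-06).

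Few of the 200 have a known function. Malat1, a nuclear RNA of many cell types that associates with splicing speckles, ranked 70. It had 0.676, 0.611, 0.714, 1.03 and 0.590 FPKM in Het MII oocytes and 8.56, 9.14, 7.49, 8.14 and 9.67 FPKM in Het 2cell embryos (log2 3.30, SE 0.16, adjusted p = 5.8e-09). In KO 2cell embryos it had 5.54, 4.64, 5.13 and 4.94 FPKM, all below the Het libraries (log2 -0.79, SE 0.12, adjusted p = 0.00364). The call was lost after removal of the GC trend (log2 -0.54, under the fold limit) and with values scaled to their sum, and the difference ranged from -0.86 to -0.46 over the alternatives. In MII oocytes the difference was -0.22 (SE 0.17, adjusted p = 0.388), and the interaction was not called.

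Of 19 listed host genes of small nucleolar RNAs, which carry these guide RNAs in their introns, 4 were among the 200. Snhg20 went from 0.0368 ± 0.0437 to 8.23 ± 2.41 FPKM in Het (SD, n = 5 each; log2 5.86, SE 0.24) and Snhg10 from 1.80 ± 0.583 to 5.87 ± 1.14 FPKM (log2 1.56, SE 0.21). Snhg6 rose by 0.87 (SE 0.22, adjusted p = 0.00358), while Snhg18 did not pass the test between stages (log2 -0.23, SE 0.15, adjusted p = 0.199). Between genotypes, Snhg18 was called in MII oocytes, where it fell from 2.61 ± 0.468 to 1.74 ± 0.562 FPKM (log2 -0.70, SE 0.22, adjusted p = 0.0442); the groups overlapped, and the call held in 2 of 10 fits that leave out 1 library. Mir17hg, the host of the miR-17 to miR-92 cluster, 2900097C17Rik, the mouse gene of Norad, which binds Pumilio proteins, and Epb41l4aos rose in Het with log2 differences of 3.23 (SE 0.43), 1.73 (SE 0.25) and 3.04 (SE 0.48). None of the 3 was called between genotypes. None of the 3 RNAs of X inactivation, 12 of imprinted loci and 8 associated with pluripotency that were listed and in the table was among the 200. That list did not hold Platr30, which is named for pluripotency and is described below.

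The genotype comparison in MII oocytes asked which maternal lincRNAs differ between KO and Het. It could test 151 of the 200. In KO, 28 were lower and 9 were higher than in Het, that is 18.5% and 5.96%, beside 7.29% lower and 5.59% higher among all 10515 genes tested. The median log2 difference was -0.19 over the 151 lincRNAs and 0.01 over all genes, and -0.17 over the 236 other lincRNA genes tested, of which 28 were lower and 12 higher. The groups did not overlap for 36 of the 151, where 16.3% of all genes tested did not. The split depended on scaling: with values as deposited 21 were lower and 14 higher, scaled to their sum 19 and 18, and after removal of a trend with GC content 25 and 14. Scaling to the sum moved the median of all genes upward as well, as given in the last section. The shares of all genes under these settings are not given. The markers of the 2cell stage moved with the genotype in oocytes, with sums of 6.28 to 11.1 FPKM in Het and 14.9 to 28.0 FPKM in KO libraries, and 2 of the 5 tested were called higher. The oocyte markers moved as well, with sums of 760 to 966 FPKM in Het and 597 to 699 FPKM in KO libraries, and 1 of 8 was called lower, Mos, a kinase that maintains the metaphase arrest, with 157 to 266 FPKM in Het and 50.5 to 82.9 FPKM in KO. The part of either marker list in the result was not tested.

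The comparison in 2cell embryos covered all 200, and 21 were higher and 17 lower in KO, or 10.5% and 8.5%, beside 8.53% higher and 9.54% lower among all 14051 genes tested. The share higher was thus near that of all genes. The median log2 difference was 0.03, beside -0.00 over all genes. The groups did not overlap for 35 of the 200, where 20.0% of all genes tested did not. With values scaled to their sum 44 were higher and 12 lower, and after removal of the GC trend 29 and 12. Scaling to the sum moved the median of all genes upward as well, as given in the last section. The shares of all genes under these settings are not given. Over the lincRNAs the log2 difference correlated with GC content across genes (r = 0.32, n = 196), beside 0.36 over all 13932 genes with a GC value. The part of GC content in single differences was not tested. Markers moved with the genotype here too, since 2 of 8 markers of the 2cell stage, 1 of 8 oocyte markers and the 1 tested marker of cumulus and granulosa cells were called lower in KO, and their part was not tested.

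Oocyte and embryo comparisons share no library. Among the 151 lincRNAs tested at both stages, 9 were lower in KO at both and 2 were higher at both, beside 2.77% and 1.75% of all 9335 genes tested at both. None was called in opposite directions. A further 26 were called in MII oocytes alone and 12 in 2cell embryos alone. The shares of all genes for these 2 counts are not given, so that they are not read as a result about lincRNAs. Across the 151 lincRNAs the 2 log2 differences had a Pearson r of 0.62 and a Spearman rho of 0.62, a value across genes, which are not independent replicates.

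**Figure D3:**
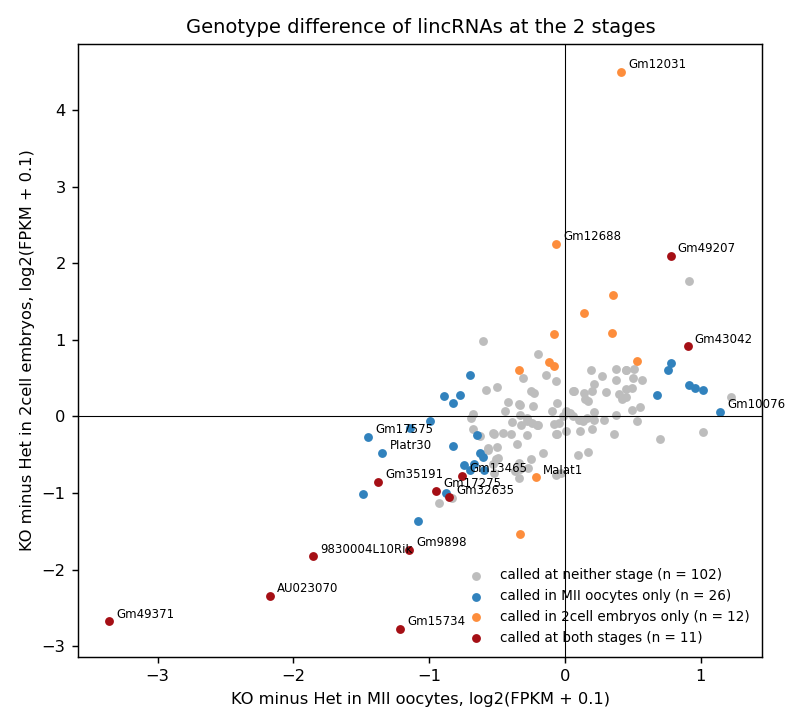
KO minus Het difference on the log2(FPKM + 0.1) scale in 2cell embryos against MII oocytes, for the 151 lincRNAs tested at both stages, with 1 point per lincRNA coloured by where it was called. The 9 lincRNAs lower at both stages lie at the lower left, while Gm12031 and Gm12688 lie near 0 in oocytes and high in embryos.

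Gm49371 showed the largest difference in oocytes. The gene lies at chr12:19560110-19564157 on the plus strand, with 3 exons, and overlaps a pseudogene on the same strand. It had 4.36, 4.97, 3.55, 2.83 and 4.68 FPKM in Het and 0.206, 0.70, 0.395, 0.20 and 0.282 FPKM in KO MII oocytes (log2 -3.35, SE 0.26, adjusted p = 8e-05). In 2cell embryos it had 13.1, 5.70, 7.99, 7.26 and 5.44 FPKM in Het and 0.626, 1.68, 1.70 and 0.870 FPKM in KO (log2 -2.67, SE 0.35, adjusted p = 0.00187). Het and KO were apart at both stages, and the level rose from oocyte to embryo in both genotypes.

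AU023070 lies at chr5:72496200-72497104 inside Corin, a protease gene on the same strand whose own level was below 0.01 FPKM on average in every group. It had 10.1, 9.71, 8.92, 7.68 and 6.78 FPKM in Het and 1.94, 2.07, 2.55, 1.47 and 1.87 FPKM in KO MII oocytes (log2 -2.17, SE 0.16, adjusted p = 5.3e-05). The 2cell values were 5.56, 4.03, 3.59, 3.36 and 3.22 FPKM in Het and 0.875, 1.31, 0.512 and 0.401 FPKM in KO (log2 -2.34, SE 0.31, adjusted p = 0.00188). Unlike Gm49371, it fell from oocyte to embryo, by 1.25 in Het (SE 0.18) and by 1.44 in KO (SE 0.29).

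9830004L10Rik at chr1:80184719-80192073 was not called between the stages in either genotype. It had 6.63, 3.48, 5.28, 5.49 and 3.30 FPKM in Het and 1.06, 1.28, 1.08, 1.69 and 1.53 FPKM in KO MII oocytes (log2 -1.85, SE 0.24, adjusted p = 0.000985). In 2cell embryos Het libraries had 6.82, 5.12, 4.88, 4.90 and 4.74 FPKM and KO libraries 1.43, 1.36, 1.94 and 1.17 FPKM (log2 -1.83, SE 0.18, adjusted p = 0.0011). The stage difference was 0.04 in Het and 0.04 in KO, with SE 0.23 and 0.20.

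The other 6 lincRNAs lower at both stages had smaller differences in MII oocytes, while in 2cell embryos Gm15734 had the largest fall of all 9. Those outside the rule for named genes were named because they were called at both stages, after their values were seen. Gm15734, which starts 96 bases from the protein-coding 9330182L06Rik on the other strand, had 1.87 ± 0.552 in Het and 0.794 ± 0.208 FPKM in KO MII oocytes, and 1.36 ± 0.320 and 0.167 ± 0.211 FPKM in 2cell embryos, a difference of -1.21 (SE 0.24) and -2.78 (SE 0.46). Gm9898 had -1.15 (SE 0.24) and -1.74 (SE 0.28), and Gm32635 -0.85 (SE 0.18) and -1.06 (SE 0.31), whose 2cell call held in 3 of 9 fits that leave out 1 library. Gm17275 had -0.95 (SE 0.13) and -0.98 (SE 0.18). It overlaps H3f3a, a histone H3.3 gene on the opposite strand, which was lower at both stages as well (log2 -0.86, adjusted p = 0.00274, and -0.76, adjusted p = 0.0079), so that without strand the 2 genes cannot be told apart. Gm35191 had -1.37 (SE 0.34) and -0.85 (SE 0.27) and Gm13465 -0.76 (SE 0.23) and -0.77 (SE 0.22). Their 2cell calls were lost after removal of the GC trend (log2 -0.40 and -0.47, adjusted p = 0.34 and 0.128) and held in 2 and 3 of 9 fits that leave out 1 library. The oocyte call of Gm13465 was lost after removal of the GC trend too (log2 -0.55, under the fold limit) and held in 4 of 10 such fits. Of the 2 higher at both stages, Gm43042 had 2.21, 2.72, 2.13, 1.79 and 2.74 FPKM in Het and 7.87, 4.84, 5.28, 4.04 and 2.75 FPKM in KO MII oocytes (log2 0.91, SE 0.22, adjusted p = 0.0163). In 2cell embryos it rose from 5.00 ± 1.51 to 9.49 ± 0.263 FPKM (log2 0.92, SE 0.23, adjusted p = 0.0203), a call that held in 6 of the 9 fits that leave out 1 library. Gm49207 shares 83.1% of its words with the mRNA of Ahsa1, so that reads of the 2 genes cannot be told apart. It had log2 differences of 0.78 (SE 0.24, adjusted p = 0.0419) and 2.10 (SE 0.32, adjusted p = 0.00347), and its oocyte call held in 2 of 10 fits that leave out 1 library.

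**Figure D4:**
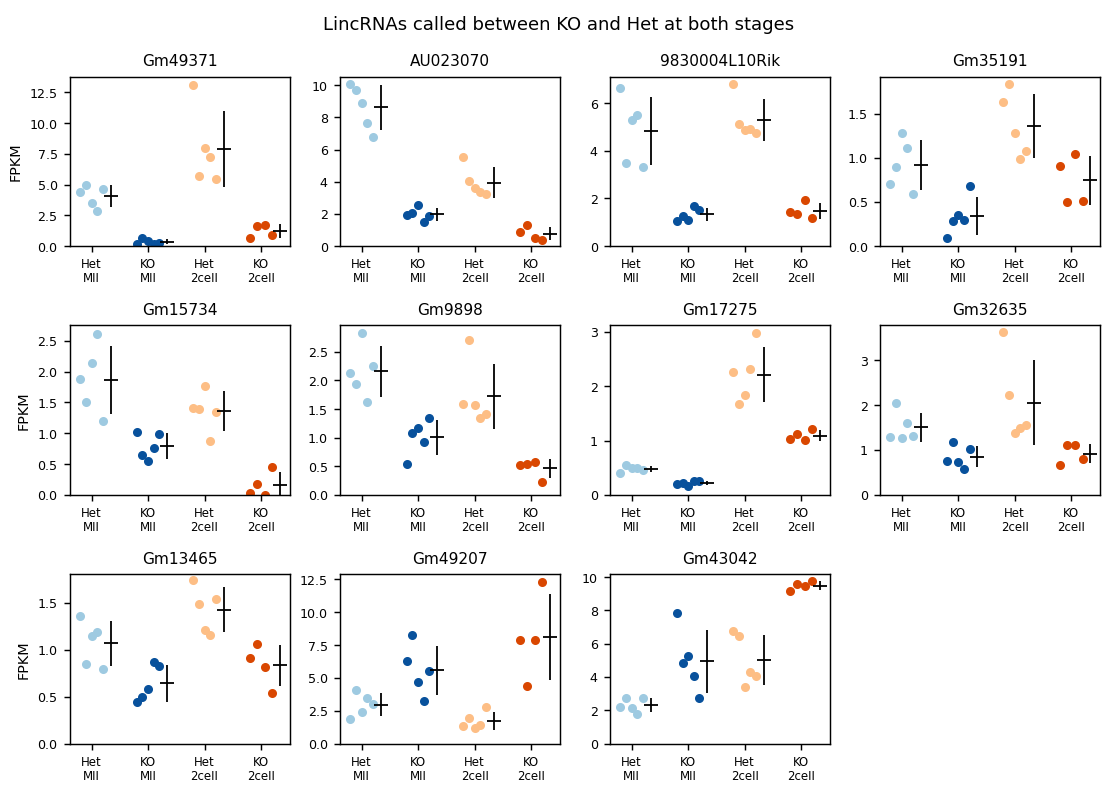
FPKM per library of the 11 lincRNAs called between KO and Het at both stages, with 1 point per library in 4 groups and the mean ± SD as a bar beside them, each panel on its own linear axis from 0. Gm49371, AU023070 and 9830004L10Rik have all KO libraries below all Het libraries at both stages, while Gm49207 and Gm43042 are higher in KO.

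CPEB proteins bind RNA by sequence, so the annotated 3′ ends of these lincRNAs are shown. The last 100 bases are printed for all 9 lower at both stages, from GENCODE vM21 on GRCm38, 5′ to 3′ on the strand of the gene. Capitals mark TTTTAT, the DNA spelling of the cytoplasmic polyadenylation element, and the polyadenylation signals AATAAA and ATTAAA, searched on the strand of the transcript only.
AU023070 (chr5:72496200-72496299, minus strand): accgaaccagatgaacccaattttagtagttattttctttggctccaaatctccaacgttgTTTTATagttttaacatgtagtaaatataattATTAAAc
Gm35191 (chr5:39975671-39975770, minus strand): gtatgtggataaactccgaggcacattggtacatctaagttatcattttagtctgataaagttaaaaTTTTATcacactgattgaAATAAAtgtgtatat
Gm49371 (chr12:19564058-19564157, plus strand): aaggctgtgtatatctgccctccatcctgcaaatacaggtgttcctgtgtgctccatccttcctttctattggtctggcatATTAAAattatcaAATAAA
9830004L10Rik (chr1:80191974-80192073, plus strand): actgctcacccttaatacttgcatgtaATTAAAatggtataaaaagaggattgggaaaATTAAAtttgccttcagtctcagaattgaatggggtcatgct
Gm9898 (chr1:30718560-30718659, minus strand): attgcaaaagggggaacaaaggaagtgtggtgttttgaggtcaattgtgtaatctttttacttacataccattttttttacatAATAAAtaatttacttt
Gm15734 (chr5:9264222-9264321, minus strand): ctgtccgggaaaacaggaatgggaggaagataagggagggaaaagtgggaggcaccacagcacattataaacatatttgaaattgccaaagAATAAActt
Gm32635 (chr12:106094823-106094922, minus strand): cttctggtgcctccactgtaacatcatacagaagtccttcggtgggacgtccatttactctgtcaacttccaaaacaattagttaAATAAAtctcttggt
Gm13465 (chr2:45753212-45753311, plus strand): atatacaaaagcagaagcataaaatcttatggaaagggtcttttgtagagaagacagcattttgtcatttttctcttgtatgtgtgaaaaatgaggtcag
Gm17275 (chr1:180809384-180809483, plus strand): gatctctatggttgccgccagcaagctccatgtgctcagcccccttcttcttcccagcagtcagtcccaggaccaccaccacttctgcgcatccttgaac
TTTTAT stood in this window for AU023070 and Gm35191 alone among the 9. A polyadenylation signal stood in the last 50 bases of 7 of the 9, beside 59.2% of the 196, and Gm13465 and Gm17275 held none of the letters searched. Among all 200, TTTTAT stood in the last 100 bases of 25 of 196 (12.8%), beside 9.12% of the other lincRNA genes and 13.3% of protein-coding genes. Over the whole transcript, 20 of the 28 lincRNAs lower in KO oocytes held TTTTAT, or 71.4%, beside 2 of the 9 higher and 59 of 110 not called. Longer transcripts hold such a word more often. Per kilobase, the lower, the higher and those not called held 0.80, 0.556 and 0.705 such words, and 64.0% of protein-coding genes held one over the whole transcript. The median lengths of the 3 groups of lincRNAs were 1189, 560 and 1212 bases. A match of these letters is a description and does not show binding.

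Outside the lincRNAs common to both stages, the largest falls in KO oocytes were those of Gm48453 (log2 -1.49, SE 0.38) and Gm17575. Gm17575 had 4.68, 4.33, 4.81, 4.65 and 3.69 FPKM in Het and 1.61, 1.90, 1.4, 1.70 and 1.76 FPKM in KO MII oocytes (log2 -1.45, SE 0.13, adjusted p = 0.000151). In 2cell embryos it had 2.00 ± 0.485 and 1.69 ± 0.343 FPKM (log2 -0.27, SE 0.21, adjusted p = 0.396), and the interaction was called (1.21, SE 0.24, adjusted p = 0.00558). It shares 93.7% of its words with Platr30, which was named after the values were seen and fell alike in oocytes, with a log2 difference of -1.34 (SE 0.13). The sum of both was 9.88 to 11.9 FPKM in Het and 3.94 to 5.06 FPKM in KO MII oocytes.

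Of the 9 lincRNAs higher in KO oocytes, Gm10076 led. It was the most abundant of the 200, with 20.1, 28.2, 18.4, 25.1 and 19.97 FPKM in Het and 53.4, 57.4, 65.6, 39.9 and 48.4 FPKM in KO MII oocytes (log2 1.14, SE 0.13, adjusted p = 0.000556). In 2cell embryos the means were 1073 ± 254 and 1135 ± 200.9 FPKM (SD, n = 5 and 4), with a difference of 0.06 (SE 0.20, adjusted p = 0.868). It is a single exon of 384 bases, and 82.2% of its words occur in Rpl41, a ribosomal protein gene, so that its level cannot be told apart from reads of Rpl41. Gm37724, the second in abundance, had 86.7 ± 13.2 in Het and 183 ± 65.7 FPKM in KO oocytes (SD, n = 5 each; log2 0.92, SE 0.19, adjusted p = 0.00955); 89.2% of its words occur in other genes, among them Gm38025 and Gm43042. The sum of these 3 and Gm16211, named for its shared words, was 144 to 212 FPKM in Het and 209.8 to 476 FPKM in KO MII oocytes, and 354 to 586 and 567 to 644 FPKM in 2cell embryos, with overlap at both stages. Gm36899 and Gm29129 had log2 differences of 1.02 (SE 0.20) and 0.96 (SE 0.21). Of the remaining most abundant lincRNAs, C86187 (log2 -0.23, SE 0.09) and Gm38025 (0.38, SE 0.15) were not called in oocytes. AA545190 was lower in KO oocytes, with 53.2 ± 6.05 in Het and 37.5 ± 3.97 FPKM in KO (log2 -0.60, SE 0.13, adjusted p = 0.0118), a call lost in 4 of the 10 fits that leave out 1 library and in 8 of 10 other settings, among them every other scaling and removal of the GC trend, where the difference was -0.35.

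In KO 2cell embryos, Gm12031 rose most. It lies at chr11:20145567-20146344 on the minus strand, with 2 exons. It had 0.348, 0.134, 0.447, 0.195 and 0.191 FPKM in Het and 13.6, 5.68, 3.95 and 13 FPKM in KO 2cell libraries (log2 4.50, SE 0.40, adjusted p = 0.00096). In MII oocytes it ranged from 0 to 0.676 FPKM in Het and from 0 to 1.35 FPKM in KO, with overlap (log2 0.41, SE 0.78, adjusted p = 0.73), and the interaction was called (4.06, SE 0.98, adjusted p = 0.0164). The nearest protein-coding gene, Actr2, which encodes an actin-nucleating protein, did not pass the test (log2 -0.07, adjusted p = 0.758).

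Gm26917 and Gm42418 rose together in KO embryos and lie side by side on chromosome 17. Gm26917 (39843013 to 39846341, plus strand) had 5.10, 8.28, 10.6, 2.36 and 2.85 FPKM in Het and 70.9, 80.3, 43.8 and 53.1 FPKM in KO 2cell libraries (log2 3.53, SE 0.43, adjusted p = 0.00147). Gm42418 (39846958 to 39848788) had 2.28, 3.35, 1.78, 0.892 and 0.850 FPKM in Het and 9.14, 10.9, 9.24 and 8.74 FPKM in KO (log2 2.44, SE 0.37, adjusted p = 0.00349). At both genes all KO libraries lay above all Het libraries, and oocyte values were at most 0.213 FPKM. Both lie in a ribosomal RNA region: RefSeq gives Gm42418 as another name of Rn18s-rs5, an 18S-related pseudogene that starts 12 bases after the end of Gm26917, and 96.3% of the words of Gm42418 occur in an annotated rRNA gene. Their GC contents, 69.1% and 60.2%, were among the 3 highest of the 200, and after removal of the GC trend the differences were 2.82 and 2.01 (adjusted p = 0.00307 and 0.00939). Reads of Gm42418 thus cannot be told apart from those of ribosomal RNA.

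Gm12688, which starts 1316 bases from Foxd3, a forkhead transcription factor gene of pluripotent and neural crest cells on the other strand, rose, as did its neighbour. It had 0.629, 0.378, 1.26, 0.258 and 0.503 FPKM in Het and 4.75, 2.50, 3.28 and 2.11 FPKM in KO 2cell libraries (log2 2.26, SE 0.37, adjusted p = 0.00447). Foxd3 itself had means of 0.102 and 0.742 FPKM and a log2 difference of 2.03 (adjusted p = 0.00644). Of the 38 lincRNAs called in 2cell embryos, 19 had a nearest protein-coding gene that could be tested. Of those 19 genes 7 were called, 5 in the direction of the lincRNA, beside 18.1% called in either direction among all genes tested. In 2 of the 5 pairs, Gm17275 with H3f3a and Gm26870 with Gm10722, the genes overlap, and their reads cannot be told apart. Of the 37 lincRNAs called in MII oocytes, 11 had a neighbour that could be tested. Of these neighbours 2 were called, beside 12.9% called in either direction among all genes tested. Only 1 went in the direction of the lincRNA, H3f3a, which overlaps Gm17275.

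**Figure D5:**
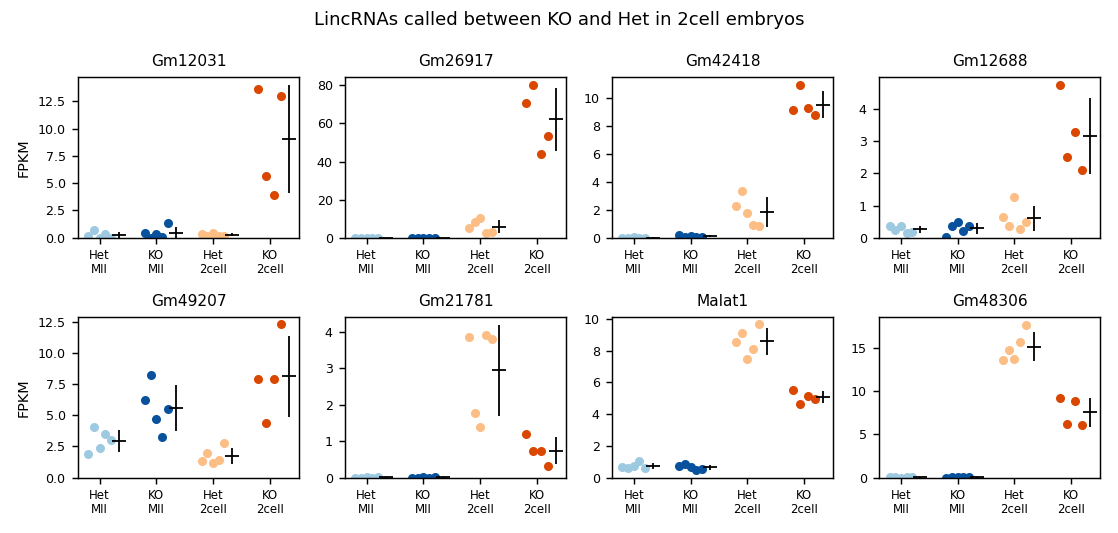
FPKM per library of 8 lincRNAs called between KO and Het in 2cell embryos, with 1 point per library in 4 groups and the mean ± SD as a bar beside them, each panel on its own linear axis from 0. Gm12031, Gm26917, Gm42418, Gm12688 and Gm49207 lie above the Het libraries in all 4 KO 2cell libraries, while Gm21781, Malat1 and Gm48306 lie below.

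The falls in KO embryos included lincRNAs that were below the filter in the oocyte. Gm48306 was at or below 0.0408 FPKM in every MII library and had 13.6, 14.8, 13.8, 15.7 and 17.7 FPKM in Het and 9.24, 6.18, 8.81 and 6.10 FPKM in KO 2cell libraries (log2 -1.05, SE 0.16, adjusted p = 0.00326). Gm21781 had 3.86, 1.79, 1.38, 3.91 and 3.81 FPKM in Het and 1.20, 0.724, 0.742 and 0.310 FPKM in KO (log2 -1.89, SE 0.41, adjusted p = 0.0131). Of the 49 lincRNAs below the filter in MII oocytes, 9 were higher and 6 lower in KO embryos, beside the 8.53% and 9.54% of all genes. Besides Gm48306 and Gm21781, the 6 were Obox4-ps35 (-1.16), 1600025M17Rik (-1.82), 2700038G22Rik (-1.25) and Gm26870 (-1.29), all named after their values were seen. None of the 6 held the shared stretch. After removal of the GC trend the difference of Gm26870 was -0.78 (adjusted p = 0.143), while that of 1600025M17Rik was -1.54 with an adjusted p of 0.0512, just past the threshold.

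The interaction of stage and genotype asked directly whether the KO effect differed between oocyte and embryo. For 18 lincRNAs the difference was more positive in the embryo and for 7 more negative, or 9% and 3.5% of the 200, beside 3.76% and 4.28% of all 15786 genes tested. With values scaled to their sum 24 and 3 were called, a scaling that moved the median of all genes upward as well. Of the 25, 11 were below the filter in MII oocytes and entered through their 2cell values, 6 of the 7 more negative ones among them. The KO effect could not be tested in oocytes for these 11. For Gm26917 (3.35 beside 3.53) and Gm48306 (-1.03 beside -1.05) the interaction was close to the 2cell difference. It was not for Gm42418 (1.64 beside 2.44) and 2700038G22Rik (-1.90 beside -1.25), where oocyte values below the filter entered as well. The lowest p were those of Gm26917 (3.35, SE 0.48, adjusted p = 0.000443), Gm4961, Gm17575, Gm48306 and AC163633.1. Gm4961 differed in sign between the stages, with a log2 difference of -0.34 in oocytes (SE 0.11) and 0.61 in embryos (SE 0.16). The oocyte difference was under the fold limit, and the embryo call held in 4 of 9 fits that leave out 1 library and was lost with a pseudocount of 1 and with no filter on low values. Its interaction was 0.96 (SE 0.18, adjusted p = 0.00345). AC163633.1 went from -0.77 (SE 0.13) to 0.28 (SE 0.19); 76.1% of its words occur in other genes, and its interaction was not called after removal of the GC trend (0.71, adjusted p = 0.144).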

How the data were processed

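RNA of MII oocytes and 2cell embryos was sequenced as paired-end libraries. According to the methods and the submitters' processing notes, the authors trimmed reads with Trim Galore 0.4.1, mapped them to GRCm38 with HISAT2 2.0.5 and deposited FPKM values per gene from SeqMonk, in a table labelled as counts. Depth was estimated from the steps between low values, of which 36.6 to 40.8% lay within 0.05 of a whole fragment. All columns were used (0 left out). The methods state quadruplicates and the labels 4 to 5 libraries per group, and each labelled library was used.

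Genes with at least 0.1 FPKM in 5 libraries (MII oocytes and the Het stage comparison) or 4 libraries (the others) were tested. Library scale was set from the trimmed mean log ratio to a common reference (30% of ratios and 5% of levels trimmed), and log2(FPKM + 0.1) was fitted in limma 3.58.1 (R 4.3.3) with a variance trend, over all genes, with p values adjusted after Benjamini and Hochberg. A call was made where the adjusted p was under 0.05 and the change above 1.5-fold. The interaction, in 1 fit of 19 libraries, needed only the p. The procedure was tested on simulated data. Alternatives were other scalings, filters and pseudocounts, removal of a loess trend with GC content (span 0.5), a replicate block, single libraries left out and 1 fit of all libraries. Same-lettered libraries did not deviate together (correlations of -0.175 to 0.12), so the letters were not taken as pairs.

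LincRNAs were matched to GENCODE vM21 (196 of 200, 194 with the same coordinates; 4 unmatched), and words of 31 bases in their transcripts were looked up in all other genes. The members, the gene lists and the comparisons were chosen with earlier results of these data known. LincRNAs named were the 10 most abundant, the 5 largest called rises and falls of each genotype and stage comparison, the 5 with the lowest interaction p, those on lists of characterised noncoding RNAs, and those at the edge of the choice; others are said to have been named after their values were seen.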

Additional observations from a re-analysis of the deposited data

Results flagged for a closer look

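Among the named lincRNAs, 174 groups of 4 or 5 libraries were examined for a library far from the rest, and 5 were found, where chance alone gives about 1 in 20. The library Het 2cell A was that library 3 times. It had 630 FPKM of Gm10076, where the other Het 2cell libraries had 1108 to 1245 FPKM, 6.82 FPKM of 9830004L10Rik, where the others had 4.74 to 5.12 FPKM, and 24.7 FPKM of Gm42980, where the others had 7.75 to 11.6 FPKM. In Het MII E, B020004C17Rik had 0.531 FPKM beside 0.252 to 0.323 FPKM in the others, and in Het MII D, Malat1 had 1.03 FPKM beside 0.59 to 0.714 FPKM.

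For 13 named lincRNAs the KO minus Het difference itself differed between 2cell embryos and MII oocytes by the interaction term of limma. Of these, Gm26917, Gm42418, Gm47510, Gm21781 and Gm48306 were below the filter in MII oocytes, where no KO effect could be tested. Except for Gm42418, their values were close to the 2cell difference. Gm42418 had at most 0.0285 FPKM in Het and 0.0312 to 0.213 FPKM in KO MII libraries. Its interaction was 1.64 beside a 2cell difference of 2.44. The difference was more positive in embryos for Gm12031 (4.06), Gm26917 (3.35), Gm12688 (2.33), Gm42418 (1.64), Gm47510 (1.25), Gm17575 (1.21), AC163633.1 (1.08), Gm4961 (0.96), Gm1070 (0.76) and C86187 (0.55), on the log2 scale. It was more negative for Gm21781 (-1.87), Gm10076 (-1.06) and Gm48306 (-1.03). After removal of the GC trend the interaction of AC163633.1 was 0.71 (adjusted p = 0.144), while that of Gm42418 was 1.41 with an adjusted p of 0.054, just past the threshold. The calls of C86187 and Gm42418 each held in 12 of 19 fits that leave out 1 library.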

How the results depend on the processing

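No call reversed its direction under any alternative run. The number of lincRNAs called in MII oocytes was 37, and 24 with a pseudocount of 1. The other alternatives with the same threshold gave 27 to 39, and leaving out single libraries gave 31 to 39. In 2cell embryos it was 38, with 30 to 56 under other scalings, filters, pseudocounts and fits, and 27 to 41 when single libraries were left out. The stage comparisons gave 140 in Het (139 to 149 with a library left out) and 148 in KO (143 to 148), and the interaction 25 (20 to 31). In every fit that leaves out 1 library, 25 of the 37 oocyte calls and 22 of the 38 embryo calls held. Scaling to the sum of FPKM moved the median log2 difference of all genes to 0.15 in MII oocytes, 0.26 in 2cell embryos and -0.41 and -0.24 between the stages in Het and KO, and to 0.12 for the interaction. Quantile scaling moved it to -0.35 and -0.36 between the stages.

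With the library letter as a replicate block, 27 lincRNAs were called in MII oocytes, 9 in 2cell embryos, 140 and 145 between the stages and 20 for the interaction. With the block and the GC trend removed, limma called 0 in 2cell embryos, where 66 had an unadjusted p under 0.05 and no gene of the whole table was called, and 34 in MII oocytes. Same-lettered libraries did not deviate together, so the letters do not pair the libraries, and the cause of the loss was not tested. Ranking by the mean of the group means replaced 1 of the 200 lincRNAs, and ranking by the median over libraries kept 146. Depth limits the low values, since 1 fragment of a lincRNA of median length is worth 0.0436 FPKM.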
